A study of Mus musculus with 8 samples.

Results

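Leukocyte marker genes were examined in CUT&Tag profiles of mouse pancreatic tumour cells with and without Setd2. They are 9 genes of the 25239 in the deposited table, taken by the names PTPRC, CD53, LAPTM5, CD3E, CD68, CSF1R, ITGAM, SPI1 and LYZ2, and written here in mouse style as Ptprc, Cd53 and so on. All 9 had a row with coordinates and a value in each of the 8 libraries. CUT&Tag tethers a transposase through an antibody against a chromatin mark and sequences the DNA cut there. The libraries came from pancreatic ductal adenocarcinoma cell lines of C57BL/6 background, either Setd2 knockout (KO) or wild type (WT). Setd2 is the methyltransferase that places the third methyl group on lysine 36 of histone H3. For each genotype there was 1 library of H3K36me3 over gene bodies, 1 of H3K27me3 at promoters, and 2 of H3K27ac at promoters, of which 1 carries the word vitro in its label. The other H3K27ac pair, whose labels lack that word, is called the plain pair. Cell type is given as cultured for every sample, although the title of the series mentions sorting from orthotopic tumours, and which libraries came from tumours is not settled by the labels. How Setd2 was removed, how many clones were used and whether a sort removed CD45-positive cells was not stated in the labels.

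With 1 library per group, no difference below has a replicate error or a test. Values are signal per kilobase, the deposited mean coverage per base times 1000. Depth is unknown for all 8 libraries, so no counting interval could be given. Because marks have separate scales, a level is also given as its percentile among all genes of the same library. In bulk chromatin a lower signal from fewer cells with the mark and a weaker mark in each cell cannot be told apart.

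These genes mark blood-derived cells rather than the epithelial lineage from which pancreatic ductal tumours arise. Active genes usually carry H3K27ac at their promoters and H3K36me3 along the transcribed body, whereas H3K27me3, laid down by Polycomb repressive complex PRC2, covers many genes of lineages that a cell does not use, mostly where the promoter is rich in CpG. Spi1 encodes PU.1, the ETS-family transcription factor that drives myeloid and B-cell development and binds purine-rich sites with a GAGGAA-type core at promoters of many myeloid genes.

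Promoter sequences are shown for 4 marker genes that span the range of acetylation, since the results turn on which of these promoters carried H3K27ac. Cd68, Itgam and Cd3e had the highest, the middle and the lowest mean H3K27ac percentile among the 7 genes with a usable promoter in the RefSeq table (build GRCm38.p6). Cd53 was added after its values were seen. Each runs 5′ to 3′ on the gene's own strand, from 250 bases before to 50 bases after the start, and capitals mark GAGGAA or its reverse complement TTCCTC.
Cd68, chr11:69666121-69666420, minus strand: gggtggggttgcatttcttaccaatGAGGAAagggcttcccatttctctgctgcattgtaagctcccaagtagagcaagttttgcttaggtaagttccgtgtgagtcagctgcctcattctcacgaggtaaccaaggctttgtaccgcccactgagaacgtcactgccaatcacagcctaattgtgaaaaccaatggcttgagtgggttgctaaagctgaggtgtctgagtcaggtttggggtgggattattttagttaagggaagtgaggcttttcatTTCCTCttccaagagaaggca
Cd53, chr3:106790100-106790399, minus strand: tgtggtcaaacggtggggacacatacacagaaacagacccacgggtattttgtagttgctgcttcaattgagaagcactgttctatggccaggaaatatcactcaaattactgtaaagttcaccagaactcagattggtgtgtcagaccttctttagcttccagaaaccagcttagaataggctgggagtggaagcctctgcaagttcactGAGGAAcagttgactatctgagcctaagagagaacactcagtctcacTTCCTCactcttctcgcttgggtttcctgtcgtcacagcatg
Itgam, chr7:128062390-128062689, plus strand: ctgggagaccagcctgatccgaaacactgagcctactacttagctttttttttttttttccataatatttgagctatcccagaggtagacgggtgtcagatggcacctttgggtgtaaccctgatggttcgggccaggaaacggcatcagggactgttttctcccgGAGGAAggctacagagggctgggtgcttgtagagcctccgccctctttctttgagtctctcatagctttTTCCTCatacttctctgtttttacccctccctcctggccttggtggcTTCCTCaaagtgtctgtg
Cd3e, chr9:45009562-45009861, minus strand: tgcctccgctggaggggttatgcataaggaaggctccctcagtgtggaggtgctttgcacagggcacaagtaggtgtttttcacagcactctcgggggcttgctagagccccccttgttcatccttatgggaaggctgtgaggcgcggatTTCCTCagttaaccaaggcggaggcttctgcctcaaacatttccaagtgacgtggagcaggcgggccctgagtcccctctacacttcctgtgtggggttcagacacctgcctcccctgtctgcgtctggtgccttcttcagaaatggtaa

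GAGGAA, searched on both strands, was present in 6 of these 7 promoters and in 28.3% of the 32851 promoters in the table. Cd68 and Cd53 held 2 matches each, Itgam 3, and Laptm5, Ptprc and Cd3e 1 each. No match was found in the Lyz2 window. The 7 promoters held 1 (Lyz2) to 9 (Laptm5) CpG in 300 bases with a median of 4, against a median of 7 over all promoters (quartiles 3 and 20). Laptm5 and Cd3e, with 9 and 8, lay above that median. Cd68 and Cd53, at the acetylated end, and Ptprc, at the low end, had 4 CpG each. A match describes the letters in the window and not binding of a factor. Spi1 and Csf1r have no sequence shown.

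The marker genes fell into 3 chromatin patterns. Cd68 and, in the vitro pair, Cd53 had strongly acetylated promoters. H3K27me3, measured only in libraries without the vitro label, was low at both. In the plain pair Cd53 H3K27ac stood at percentiles 71.2 in KO and 33.5 in WT. Spi1, Cd3e, Csf1r and Lyz2 had high H3K27me3, with H3K27ac below the median gene except in the plain WT library, where Lyz2 (percentile 55.3) and Csf1r (51.4) were just above it. Ptprc had little of either mark, and Laptm5 and Itgam lay between the patterns. These are descriptions of the levels in each library. Gene-body H3K36me3 was not used for this grouping. Spi1 (percentiles 88.7 in KO and 83.8 in WT) and Csf1r (75.5 and 84.3) also ranked high in that mark. These ranks include many genes listed at 0. Among genes above 0 they were 84.2 in KO and 75.8 in WT for Spi1, and 65.8 and 76.6 for Csf1r.

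Cd68 (ENSMUSG00000018774, chr11:69664213-69666153, mm10, minus strand) encodes macrosialin, a lysosomal glycoprotein abundant in macrophages but not restricted to them. Its promoter H3K27ac was 46 in KO and 16.2 in WT of the plain pair, and 45.5 in KO and 30.1 in WT of the vitro pair. It stood above the 75th percentile in all 4 H3K27ac libraries, from percentile 79.1 to 94.6. H3K27me3 there was 2.2 in the KO library and 0.55 in WT, at percentiles 33.8 and 15.4. The Cd68 start lies 783 bases from the end of Eif4a1, a translation initiation helicase, and 3504 bases from the start of Mpdu1, a glycosylation factor. Both neighbours had H3K27ac of the same order. In the plain pair Mpdu1 had 51.4 in KO and 28.9 in WT, and Eif4a1 had 61.5 and 33.4. The width of the promoter windows is not stated in the labels, and signal of neighbouring starts inside one window cannot be told apart.

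Cd53 (ENSMUSG00000040747, chr3:106759921-106790149, mm10, minus strand) encodes a tetraspanin of the leukocyte surface. Its H3K27ac was 105 in KO and 43.7 in WT in the vitro pair, and 18.5 in KO and 4.66 in WT of the plain pair. The vitro values lay at percentiles 99.5 and 93.1, the others at 71.2 and 33.5. H3K27me3 at this promoter was 0.44 in KO and 1.65 in WT, at percentiles 9.98 and 32.9. H3K36me3 over its body of 30.2 kb was 1.2 in KO and 1.01 in WT, under the median gene of both libraries (3.0 and 2.73). Its strong promoter acetylation in the vitro libraries thus stood beside low gene-body H3K36me3, which was measured in a separate pair of libraries. No other RefSeq gene lay within 6000 bases of the Cd53 start.

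**Figure D1:**
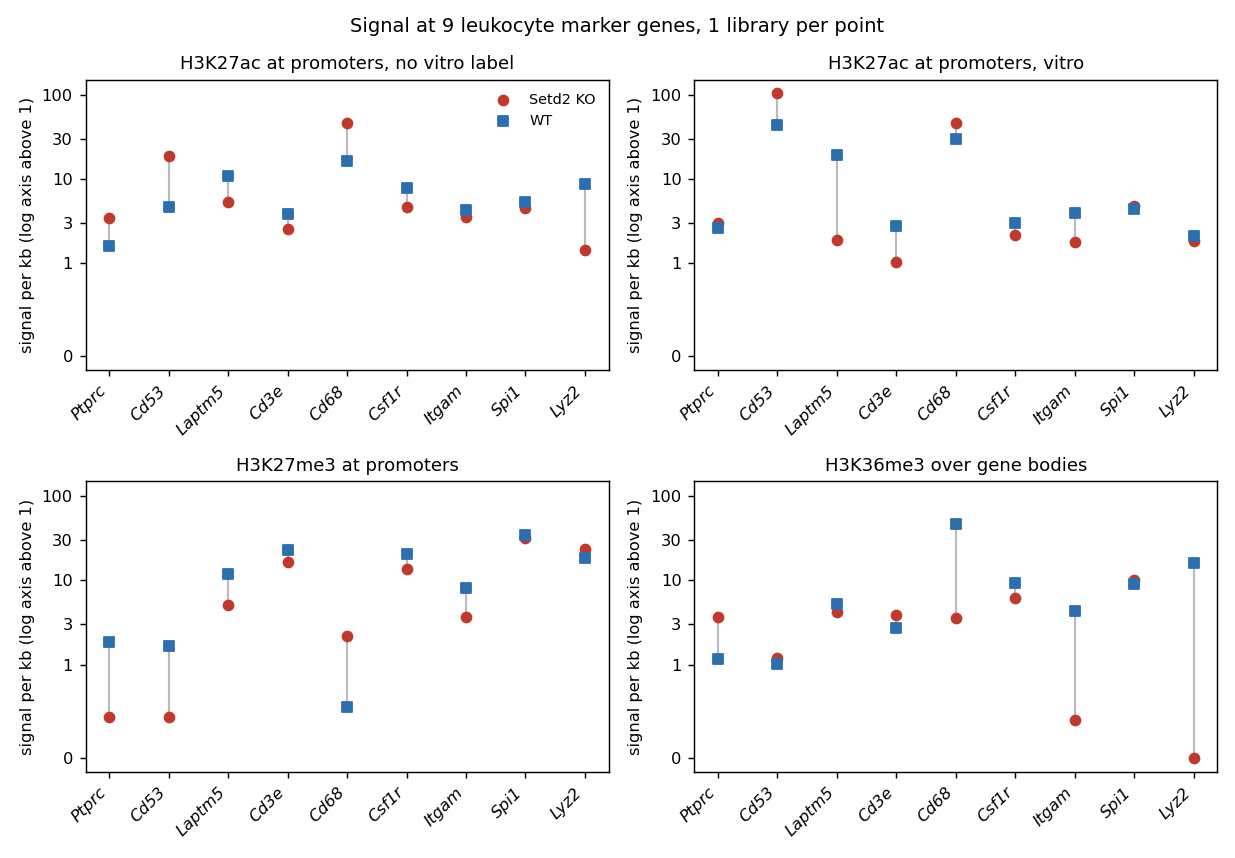
Signal per kilobase (vertical axis, linear from 0 to 1 and logarithmic above) at the 9 marker genes in the 8 libraries. Each point is 1 library, red circles for Setd2 KO and blue squares for WT, joined by a grey line per gene. Cd68 stands out in H3K27ac, as does Cd53 outside the plain WT library, and Spi1, Lyz2, Cd3e and Csf1r stand out in H3K27me3.

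Spi1 (ENSMUSG00000002111, chr2:91082390-91115756, mm10, plus strand) had the highest H3K27me3 of the 9 genes, 31.9 in KO and 35 in WT, at percentiles 91.4 and 93.5. Its H3K27ac stayed between 4.37 and 5.32 in all 4 libraries, at percentiles 36.5 to 44.0. The log2 ratio of KO over WT was -0.13 for H3K27me3, -0.15 for plain H3K27ac and 0.07 for vitro H3K27ac. It was 0.14 for H3K36me3, whose level was 10.3 in KO and 9.06 in WT, at percentiles 88.7 and 83.8. Spi1 was thus the marker gene whose levels differed least between the genotypes.

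Cd3e (ENSMUSG00000032093, chr9:44998740-45009627, mm10, minus strand) encodes the epsilon chain of the T-cell receptor complex. H3K27me3 was 16.7 in KO and 22.7 in WT, at percentiles 83.9 and 89.0. H3K27ac ran from 1.03 in the vitro KO library to 3.77 in the plain WT library, at percentiles 13.0 to 29.6 over the 4 libraries. Csf1r (ENSMUSG00000024621, chr18:61105572-61132149, mm10, plus strand) encodes the receptor of macrophage colony-stimulating factor. It had H3K27me3 of 13.9 in KO and 20.3 in WT, and H3K27ac of 4.6 and 7.82 in the plain pair and 2.17 and 2.99 in the vitro pair, in the same order. Both genes thus stood at percentile 81.1 or above in H3K27me3, with H3K27ac near or below that of the median gene.

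Lyz2 (ENSMUSG00000069516, chr10:117277331-117282321, mm10, minus strand) encodes lysozyme M of macrophages and neutrophils. H3K27me3 was 23.4 in KO and 18.3 in WT. H3K27ac was 1.42 in KO and 8.65 in WT of the plain pair, and 1.83 and 2.07 in the vitro pair. Its near-identical neighbour Lyz1 had 0.77, 4.6, 1.49 and 1.15 in the same order, and H3K27me3 of 22.8 and 17.0. Reads from these paralogs could be split between them, so the Lyz2 values are uncertain as values of 1 gene.

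Ptprc (ENSMUSG00000026395, chr1:138062861-138175708, mm10, minus strand) encodes CD45, the phosphatase found on nearly all nucleated blood cells. Its promoter H3K27ac was 3.45 in KO and 1.61 in WT of the plain pair, and 2.97 and 2.59 in the vitro pair. Those values lay at percentiles 11.2 to 35. H3K27me3 was 0.44 in KO and 1.86 in WT, at percentiles 9.98 and 35.6. Over its body of 113 kb, H3K36me3 was 3.68 in KO and 1.16 in WT, at percentiles 56.4 and 39.1. CD45 is the usual gate for removing leukocytes, and its promoter lay below the median gene in both promoter marks in every library.

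Laptm5 (ENSMUSG00000028581, chr4:130913125-130936141, mm10, plus strand) encodes a lysosomal membrane protein of blood cells. H3K27ac was 5.26 in KO and 10.6 in WT of the plain pair, and 1.89 in KO and 18.9 in WT in the vitro pair. H3K27me3 was 5.17 in KO and 11.9 in WT. Both promoter marks were thus lower in the KO library of every pair. The RefSeq long non-coding gene Gm38599 overlaps the start of Laptm5, and its signal cannot be told apart from that of Laptm5. Itgam (ENSMUSG00000030786, chr7:128062640-128118491, mm10, plus strand) encodes the integrin CD11b of myeloid cells. It had H3K27ac between 1.77 and 4.21 and H3K27me3 of 3.68 in KO and 8.06 in WT, at percentiles 49.0 and 72.4.

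**Figure D2:**
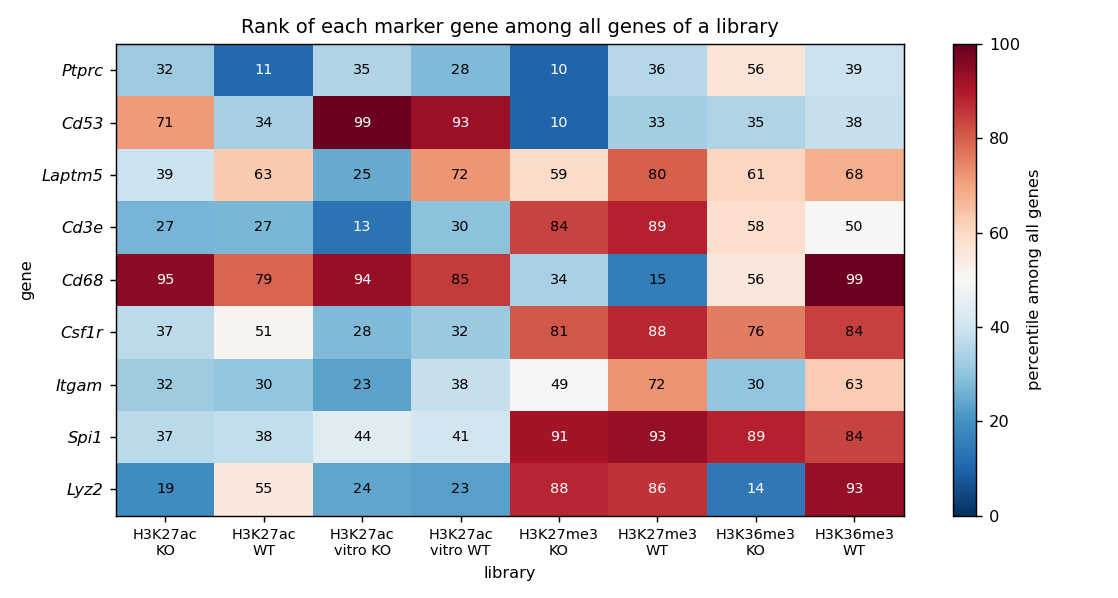
Percentile of each marker gene (rows) among all 25239 genes of each library (columns), with blue below and red above the median gene. Cd68 is red in all 4 H3K27ac libraries, and Spi1, Cd3e, Csf1r and Lyz2 are red in both H3K27me3 libraries at percentile 81.1 or above.

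For the differences between libraries, the 25th percentile of the positive values of each pair was taken as a floor. It was added to both values before the log2 ratio, which makes differences between low values look smaller, and genes whose mean over the pair was below it were not counted. A gene is said to differ if the ratio was at least 2-fold.

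Between KO and WT in the plain H3K27ac pair, 7 of the 9 genes passed the floor of 3.29. Cd53 (log2 ratio 1.46) and Cd68 (1.34) were higher in KO and Lyz2 (-1.34) was lower. Over 18673 genes, 13.1% were higher and 4.32% lower (17.4% in either direction), with a median ratio of 0.32, and quantile normalization changed the split from 2440 higher and 807 lower genes to 1245 and 1154. Centred on that median (826 higher and 1736 lower genes), Cd53 stood at 1.14, Cd68 at 1.02 and Laptm5 at -1.02, and Lyz2 was still among the lower genes. Lyz2 was under 2-fold with a larger pseudocount (-0.49) and lay below a floor set at the median. Cd68 was under 2-fold with quantile normalization (0.79), with the trend of the ratio on level removed (0.70) and with a larger pseudocount (0.94). Among the members between the thresholds, Laptm5 had -0.71 and Csf1r -0.49. Ptprc and Cd3e lay below the floor.

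In the vitro pair 7 genes passed the floor of 2.18, Cd53 was higher in KO (1.22) and Laptm5 lower (-2.37). The shares over 18960 genes were 3.95% higher and 3.58% lower (7.53% together), with a median of -0.07. Laptm5 had a ratio above that of 0.10% of these genes, and Cd53 above that of 97.4%. Cd68 had 0.57 and Itgam -0.64. Cd53 was therefore at least 2-fold higher in KO in both H3K27ac pairs, which are separate libraries, although in the plain pair not with the larger pseudocount.

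In H3K27me3, 6 genes passed the floor of 1.54 and Laptm5 was lower in KO, at -1.01. Over 19034 genes 6.92% were lower and 15.4% higher, 22.3% together (1317 and 2935 genes, or 1909 and 2049 with quantile normalization), with a median of 0.18. Itgam had -0.88, Csf1r -0.51, Cd3e -0.42 and Lyz2 0.33. The median over the 6 genes was -0.46. Laptm5 was just past the threshold, and it was under 2-fold with a larger pseudocount (-0.61) or a higher floor (-0.81).

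In H3K36me3, 6 genes passed the floor of 2.66. Cd68 had 3.61 in KO and 46.5 in WT (-2.97), and Lyz2 had 16.1 in WT and a listed 0 in KO. The neighbours of Cd68 were also lower in KO, Eif4a1 with 2.06 against 12.5 in WT and Mpdu1 with 2.97 against 8.35. Whether their signal reaches into Cd68 was not tested. Cd68 and Lyz2 are short genes, of 1.94 kb and 4.99 kb. In genes under 5 kb 36.9% were lower and 45.4% higher in KO, 82.3% together. Over all 15475 genes the shares were 20.5% and 20%, 40.5% together, and in genes of at least 20 kb 10.8% and 8.02%, 18.9% together. Over all genes of the library the median was 3.0 in KO and 2.73 in WT, and the mean 5.2 and 5.8. Those listed at 0 were 7145 in KO and 8314 in WT. No clear general loss of H3K36me3 in KO was thus visible in these values, whose scaling is unstated. Among the longer members, Laptm5 had 4.18 in KO and 5.24 in WT, Cd3e 3.90 and 2.70, and Csf1r 6.22 and 9.28, none of them past 2-fold. Itgam, with 0.40 in KO and 4.35 in WT over 55.9 kb, lay below the floor on average, as did Ptprc and Cd53.

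**Figure D3:**
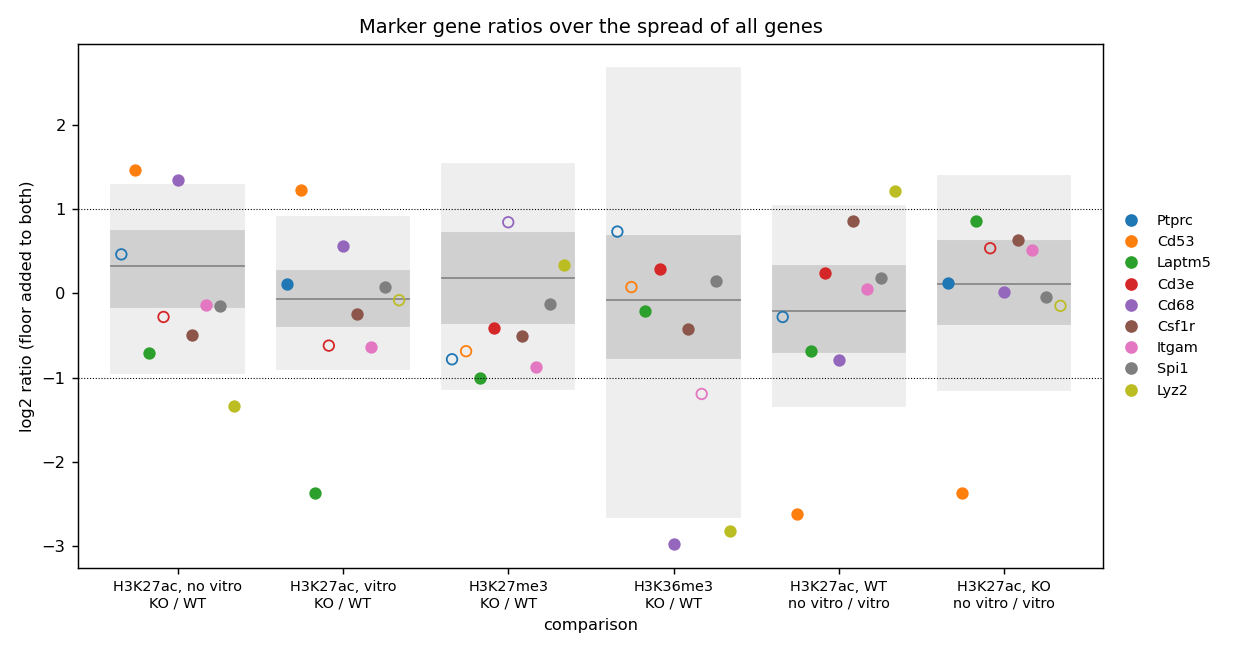
Log2 ratio (vertical axis, with the floor added to both values) of the 9 marker genes in 6 comparisons, over the spread of all genes past the floor. Dark boxes span the 25th to 75th percentile, light boxes the 5th to 95th, the grey line is the median, dotted lines mark 2-fold and open circles are genes below the floor. Cd53 lies above the light box in both KO over WT comparisons of H3K27ac and below it between the settings.

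Between the settings, Cd53 H3K27ac was lower in the plain library than in the vitro library in both genotypes, at -2.62 in WT and -2.36 in KO. In WT 13% of 19214 genes were lower and 5.56% higher, 18.6% together (2500 and 1068 genes, or 1049 and 1075 with quantile normalization). In KO 6.89% of 18974 genes were lower and 12.6% higher, 19.5% together (1307 and 2384, or 1763 and 1866). The medians were -0.21 and 0.11. Lyz2 was higher in the plain library in WT (1.21) and under 2-fold there once the trend with level was removed (0.87). In KO it lay below the floor. Csf1r had 0.86 in WT and 0.63 in KO, and Laptm5 -0.69 in WT and 0.85 in KO. These comparisons use the same 4 H3K27ac libraries as those between the genotypes. Summed over the 9 genes, H3K27ac was 89.8 in KO and 62.9 in WT of the plain pair and 167 and 111 in the vitro pair. Cd53 and Cd68 set the direction of these sums. Over the other 7 genes the sum was lower in KO, at 25.2 against 42 in WT of the plain pair and 16.4 against 37.6 in the vitro pair. Because Cd53 and Cd68 were left out for their high KO values, a lower remainder is no finding about the 7 genes as a group. In the vitro pair most of the gap was at Laptm5 (1.89 in KO and 18.9 in WT). Ptprc (2.97 and 2.59) and Spi1 (4.69 and 4.37) were slightly higher in KO there. The sum over all genes was 362644 in KO and 262022 in WT of the plain pair, and 364549 and 369775 in the vitro pair. No marker gene was listed at 0 in any H3K27ac or H3K27me3 library.

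A wider list held 105 further leukocyte genes (30 pan-leukocyte, 25 of T and NK cells, 10 of B cells and 40 myeloid). H3K27me3 was at or above the 75th percentile in both genotypes for 39 of them (37.1%), for 4 of the 9 marker genes and for 20.4% of all genes. The share was 7 of 10 for B-cell genes, 11 of 25 for T and NK cells, 13 of 40 for myeloid and 8 of 30 for pan-leukocyte genes. In the other lists the count was 12 of 20 epithelial, 8 of 15 fibroblast, 10 of 15 endothelial and 0 of 15 housekeeping genes. H3K27ac was at or above the 75th percentile in all 4 libraries for 1 of the 105, the lipopolysaccharide co-receptor Cd14, against 14.8% of all genes and 1 of the 9 marker genes (Cd68). Of 20 epithelial genes, the lineage of the labelled tumour cells, 8 met this, among them the keratins Krt8, Krt18 and Krt19. For 15 fibroblast and 15 endothelial genes the count was 0 each, and it was 10 for 15 housekeeping genes. Other epithelial genes went the other way in the vitro pair only. Epcam, Grhl2 and Esrp1 had H3K27ac at percentile 33.4 or below in both vitro libraries. In the plain KO library Epcam stood at 58.8, Esrp1 at 60.6 and Grhl2 at 26.2. In the plain WT library Epcam and Grhl2 stood at the median gene and Esrp1 at 57.7. Their H3K27me3, measured only in libraries without the vitro label, was at percentile 93.3 or above in both genotypes.

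**Figure D4:**
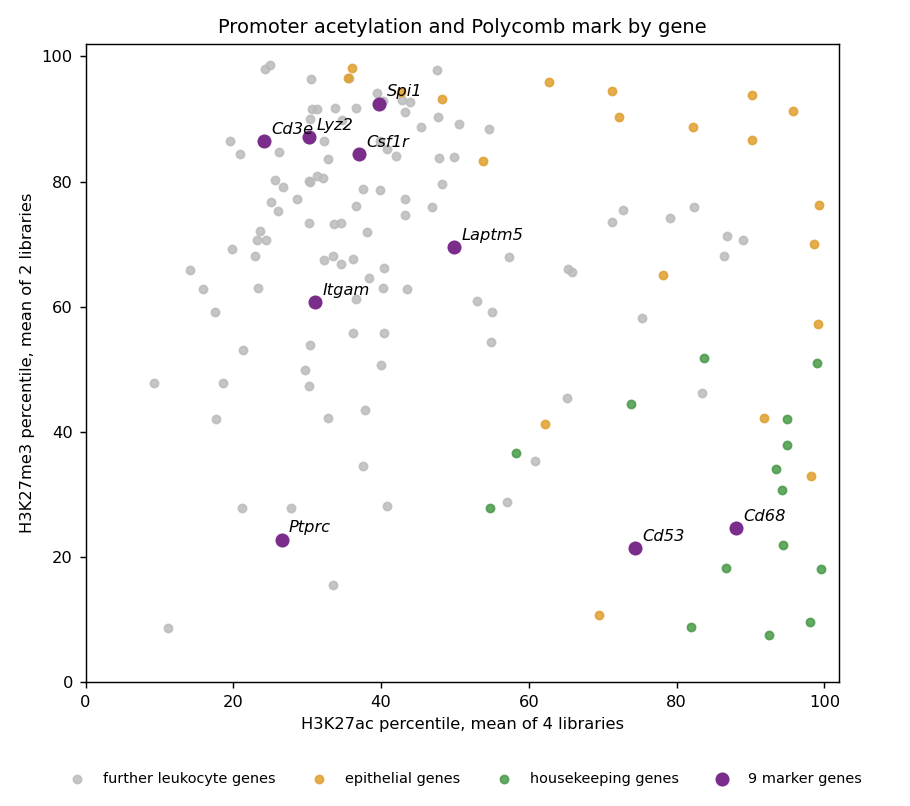
Mean H3K27ac percentile over 4 libraries (horizontal axis) and mean H3K27me3 percentile over 2 libraries (vertical axis), with 1 point per gene. Purple points are the 9 marker genes, grey 105 further leukocyte genes, orange 20 epithelial and green 15 housekeeping genes. Cd53 and Cd68 lie at the lower right among housekeeping genes, although the Cd53 mean covers percentiles from 33.5 to 99.5. Spi1, Lyz2, Cd3e and Csf1r lie at the upper left among other leukocyte genes, where the epithelial genes Epcam, Grhl2 and Esrp1 also lie. The Epcam and Esrp1 means join low vitro with higher plain H3K27ac percentiles.

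In the vitro pair 11 of the 75 further leukocyte genes past the floor were higher in KO by 2-fold or more and 2 were lower, with a median of -0.08. These are 14.7% and 2.67%, beside 3.95% and 3.58% of all genes. A higher share was not particular to leukocyte genes, as 4 of 10 fibroblast genes past the floor were higher and 0 lower. Endothelial genes had 1 of 13 in each direction, and epithelial genes 0 of 19 higher and 5 lower. Among the further leukocyte genes the highest ratios were at the T-cell costimulator Cd28 (20.3 in KO and 1.15 in WT, 2.75), the kinase Syk (14.6 and 1.15, 2.34), the neutrophil surface gene Ly6g (56.8 and 10.6, 2.21) and the GM-CSF receptor chain Csf2ra (120 and 24.4, 2.2). The adaptor Lat (-1.15) and the NADPH oxidase subunit Ncf4 (-1.04) were lower. In the plain pair 7 of 84 were higher (8.33%, beside 13.1% of all genes) and 4 lower (4.76%, beside 4.32%), with a median of 0.09. Evi2b (2.12), the transcription factor Runx1 (57.8 and 12, 2.0), the Fc receptor Fcgr3 (1.55) and the hyaluronan receptor Cd44 (46.1 and 13.6, 1.54) were highest. The complement gene C1qa (-1.84), the B-cell gene Ms4a1 (-1.29) and the actin bundler Lcp1 (-1.21) were lowest. Runx1 and Cd44 are also used by epithelial cells.

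In H3K27me3, 7 of 101 were higher in KO and 7 lower (6.93% each, beside 15.4% and 6.92% of all genes), with a median of 0.03. Lcp1 (20.8 in KO and 3.84 in WT, 2.06), Cebpa (1.5), Gzmb (1.25) and Cd79a (1.17) were highest. Itgax, the integrin CD11c (8.19 and 25.4, -1.47), Fcer1g (-1.40), Prf1 (-1.40) and Fyb (-1.33) were lowest. In H3K36me3, 25 of 73 were higher (34.2%, beside 20% of all genes) and 13 lower (17.8%, beside 20.5%), with a median of 0.12. Of all genes under 5 kb, 82.3% differed in this pair. Ly6g (34.3), Cd14 (31.1) and Elane (20.8) had signal in the KO library against a listed 0 in WT. Ly6c2 (74.0), Cebpa (52.5) and Cd3g (22.8) had signal in the WT library against a listed 0 in KO, while Trem2 had 0.96 in KO and 28.8 in WT.

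Between the settings, 11 of the 85 further genes past the floor in WT were higher in the plain library (12.9%, beside 5.56% of all genes) and 3 were lower (3.53%, beside 13%). Irf8 (11.9 against 0.98, 1.93), Lcp1 (1.70), Inpp5d (1.63) and Cd84 (1.37) led the first group, and Cd44 (-1.32), Cd14 (-1.12) and Runx1 (-1.04) formed the second. In KO 21 of 82 were higher in the plain library (25.6%, beside 12.6% of all genes) and 6 lower (7.32%, beside 6.89%). The highest were Evi2b (2.16), the exchange factor Vav1 (19.0 against 3.15, 1.97), Runx3 (1.92) and Cd84 (1.70), and the lowest were Ly6g (-2.41), Csf2ra (-2.18), Syk (-1.99) and Cd28 (-1.71). The medians were 0.34 in WT and 0.33 in KO, against -0.21 and 0.11 over all genes. Fibroblast genes had medians of 0.88 in WT and 0.77 in KO, endothelial genes 0.76 and 0.46, and epithelial genes -0.49 and -0.04. The higher medians were thus not particular to leukocyte genes.

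The genes with the most similar values were sought by the Euclidean distance of log2(signal + floor) over the 8 libraries, among 20090 named genes. Cd3e was closest to Lhfpl3 (distance 0.40) and St8sia1 (0.56), Csf1r to Csf2rb2 (0.50) and Plcg2 (0.51), Lyz2 to Slc22a17 (0.66) and Rtl5 (0.73), and Spi1 to Adamts13 (0.72) and Hlf (0.77). Ptprc was closest to Epsti1 (0.74) and Adtrp (0.75), and Itgam to Hsd3b6 (0.74) and Btg1b (0.76). Cd53 had no such near match, with the histone genes H2bc7 (1.35) and H3c3 (1.37) as its nearest. Cd68 was closest to Zdhhc8 (1.08) and Ptov1 (1.13), and Laptm5 to Pag1 (1.13) and Cracr2a (1.18).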

How the data were processed

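The deposited table holds, for each gene, the signal of 8 CUT&Tag libraries, and the authors gave it as mean coverage per base over promoters or gene bodies with an unstated scaling. Per the submitters' processing notes, Bowtie2 2.4.2, HOMER, MACS2 2.2.7.1 and mm10 were used; their order and settings, the promoter window and the treatment of duplicates were not stated there. A scale set per library would shift all ratios of a pair together. The 9 genes were found by name. Of 25450 rows, 211 were further loci of a gene, of which the locus with the highest mean was kept, giving 25239 genes. Groups follow the sample titles, with 1 library each, so no test was run. Levels were ranked within a library, and log2 ratios were computed with Python 3.11.15, numpy 2.4.6 and pandas 2.3.3 for 6 comparisons. The ratio code was first tested on simulated data. The members, lists and thresholds were chosen with earlier results of these data known. Named genes were the members, up to 4 further leukocyte genes per direction past 2-fold, and the 2 nearest genes per member; 1 gene that the rule names is not reported here. Alternatives were other pseudocounts and floors, no filter, centring, quantile normalization, the mean of joined rows and, chosen after seeing the data, removal of the trend with level and sums without Cd53 and Cd68.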

Additional observations from a re-analysis of the deposited data

Results flagged for a closer look

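Among the marker genes and the further genes named, the gap in H3K27ac between the settings was at least 1.5-fold in each genotype and in opposite directions at 2 genes. At Laptm5 the log2 ratio of the plain library (without the vitro label) over the vitro library was -0.69 in WT and 0.85 in KO, a difference of -1.54. At Cd28 it was 1.05 in WT and -1.71 in KO, a difference of 2.77. Each value rests on 1 library per group, and the difference was not tested.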

How the results depend on the processing

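No paired analysis was possible because each group has 1 library. Of 307 member ratios recomputed under an alternative, 14 moved by more than 1.5-fold, mostly with another pseudocount. None of those reported past 2-fold changed sign, while 12 smaller ones did, of Itgam, Spi1, Cd3e, Cd68 and Ptprc in H3K27ac, with sizes up to 0.24 as reported and 0.28 after centring, quantile normalization or removal of the trend. Members past 2-fold went from 3 to 0 in plain H3K27ac with the larger pseudocount. In H3K27me3 there was 1 member, with 2 under the smaller pseudocount, 2 with centring, 2 with quantile normalization, 0 with the larger pseudocount and 0 with the floor at the median. Between the settings there were 2 in WT, with 1 under the larger pseudocount, 1 with the higher floor and 1 with the trend removed, and 1 in KO, with 2 under the smaller pseudocount. Cd53 and Laptm5 in the vitro pair, and Cd68 and Lyz2 in H3K36me3, were past 2-fold under every alternative run. The number of all genes past 2-fold ran from 299 to 5291 (3247 as reported) and from 375 to 2471 (1427) in plain and vitro H3K27ac. It ran from 493 to 6279 (4252) in H3K27me3, from 1953 to 7769 (6265) in H3K36me3, and from 682 to 5726 (3568) and 640 to 5264 (3691) between the settings in WT and KO. Genes at 0 set the H3K36me3 ranks: the median percentile over members and libraries was 46.5, and 39.3 among genes above 0, with 14 of 143 recomputed percentiles moved by 5 points or more, all in H3K36me3. Depth is unknown, so differences between low values cannot be set against counting error.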

Other observations

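Some further leukocyte genes, like Cd53, had their highest H3K27ac in the vitro KO library. Itgb2, the integrin beta chain that pairs with CD11b, had 58.8 in vitro KO, 26.1 in vitro WT, 31.2 in plain KO and 12.5 in plain WT. Cd5, a T-cell surface receptor, had 38.3, 21.1, 14.4 and 10.1 in the same order, and the inhibitory Fc receptor Fcgr2b had 36.6, 7.36, 23.2 and 6.54. These 3 genes were chosen after their values were seen. Itgam, the partner of Itgb2, stayed at 1.77, 3.97, 3.51 and 4.21.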
